A study of Mus musculus with 8 samples.

Results

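The genes described are 9 that encode the T cell receptor complex and the proteins that relay its first signals, chosen by symbol from the gene table. They are the CD3 chains Cd3d, Cd3e, Cd3g and Cd247, the coreceptors Cd4 and Cd8a, the kinases Lck and Zap70, and the adaptor Lat. All 9 had a row in the deposited table, out of 21885 genes. The data are RNA-seq of mouse skin from 4 samples given MC903 plus phytic acid and 4 samples given MC903 without it, which the labels also call control. MC903 (calcipotriol) is a synthetic relative of vitamin D used on mouse skin to set off inflammation that resembles atopic dermatitis, and phytic acid is the phosphorylated inositol that plants store in seeds. The series asks what phytic acid adds in such a model, and since every sample received MC903 there is no untreated skin to compare with. The labels state no strain, age, sex, dose, route or time of sampling. They also do not say whether the 4 samples of a group came from separate mice, so each p-value reflects sample-to-sample spread that could be partly technical.

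An alpha-beta or gamma-delta receptor has no signalling tail of its own and sits in the membrane with CD3 delta, epsilon, gamma and zeta, whose cytoplasmic tyrosines carry the signal. The coreceptors CD4 and CD8 bind MHC class II and class I and bring the kinase LCK to the receptor. LCK phosphorylates the CD3 and zeta tails, ZAP-70 docks there, and ZAP-70 phosphorylates LAT, the scaffold on which the downstream enzymes assemble. In mouse skin the receptor is carried by dermal T cells and by the dendritic epidermal T cells, a resident gamma-delta population. The genes for the receptor's own constant chains were not analysed here.

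Values are FPKM, fragment counts scaled to transcript length and to the library's total. The deposited values corresponded to whole reads in nearly all genes, which gave totals of 38310034 to 42997272 reads in the phytic acid libraries and 31676934 to 37639477 in the MC903 libraries, so the shallowest phytic acid library exceeded the deepest MC903 library, and the part of depth in the results was not tested. A member had between 8 and 1058 reads in a library. Krt14, the basal keratinocyte keratin, averaged 1357 FPKM with phytic acid and 5275 FPKM with MC903. Of 10 basal keratinocyte genes, 2 rose (Krt15 by 1.99 and Dst by 0.63 on the log2 scale) and Krt14 alone fell, by 1.91 (limma, adjusted p = 0.000437, 0.0038 and 0.0017), while Krt5 had 814 FPKM with phytic acid and 888 FPKM with MC903.

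All 9 members had a higher mean with phytic acid. The ratio of the group means ran from 1.86 for Lck to 4.85 for Cd3g. In 6 of the 9 (Cd3e, Cd3g, Cd247, Cd4, Zap70 and Lat) every phytic acid library lay above every MC903 library, and among the 14508 genes with enough reads 13.7% did so. In Cd3d, Cd8a and Lck the groups overlapped. Tissue RNA was measured in bulk, so more T cells and more of these RNAs in each T cell cannot be told apart.

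The members were tested in 2 ways. In limma on log2(FPKM + 1), with genes kept at 1 FPKM or more in at least 4 libraries, 5 members were tested, and 4 of them (Cd3d, Cd3g, Cd4 and Lat) rose at an adjusted p (Benjamini-Hochberg) under 0.05, where 14.2% of all 12165 genes tested were called higher. Cd3e, Cd247, Zap70 and Cd8a were below that filter. A member could pass it through the higher group alone, so this count is a description. It was 2 (Cd3g and Lat) without phytic acid replicate 1, 2 or 4 or MC903 replicate 1 or 4. In limma voom on the recovered reads, with at least 10 reads in at least 4 libraries, all 9 were tested and 7 were called higher, against 12.3% of 14508 genes. Without MC903 replicate 1 that count was 4. Lck was called by neither test, and Cd8a was not called by voom. No member was called lower, where 11.6% of genes were in the first test and 9.79% in the second. The log2 fold changes of the first test are smaller than those of the second for low genes, because of the added 1.

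**Figure D1:**
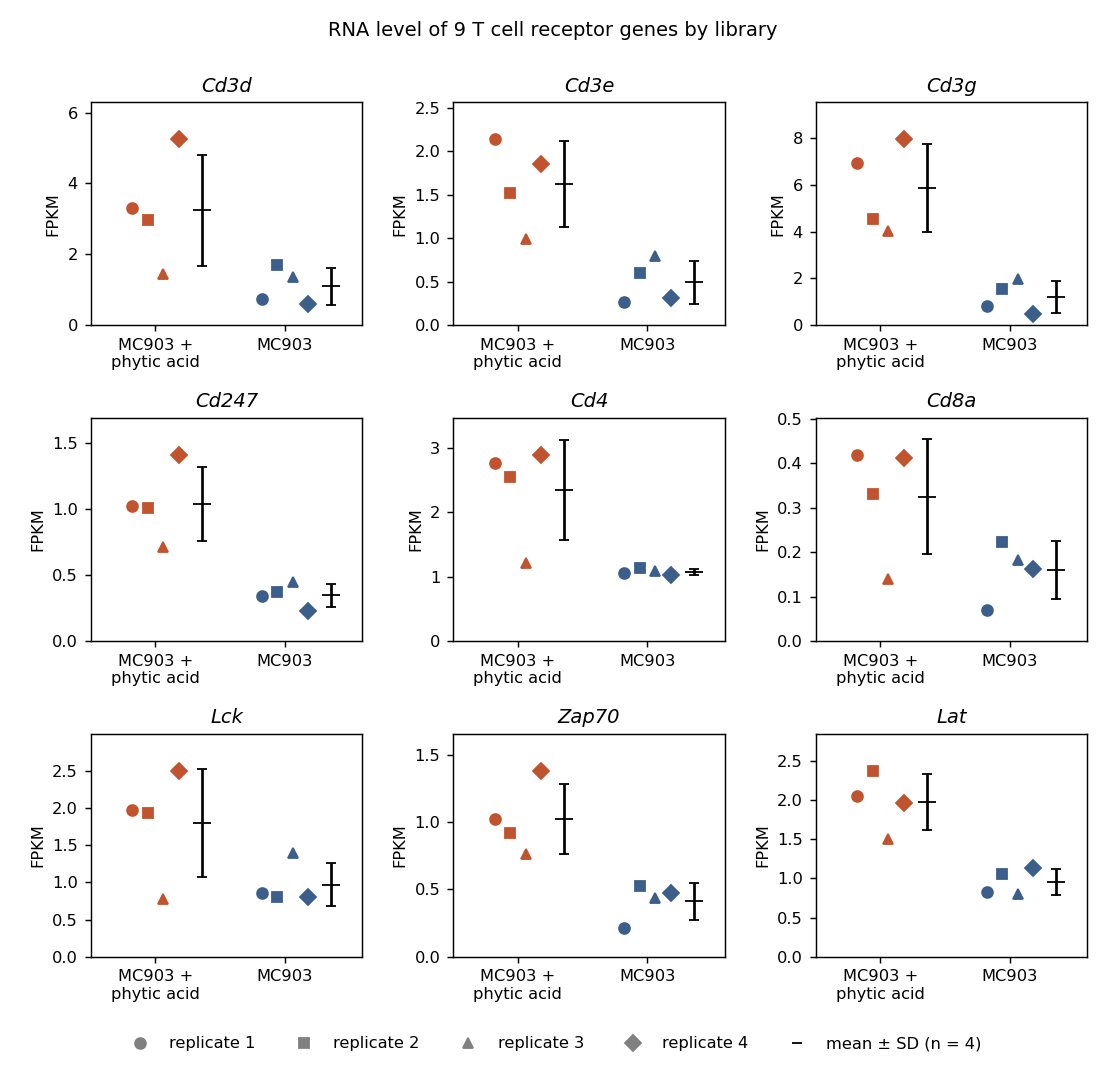
FPKM of the 9 members in each library, with MC903 plus phytic acid on the left and MC903 on the right of each panel; each point is a library, and the bar and whiskers are the mean and SD (n = 4 each). The groups overlap in the Cd3d, Cd8a and Lck panels and are apart in the other 6.

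The CD3 chains were the members that differed most. Cd3g encodes CD3 gamma and lies at chr9:44969572-44980431 on the minus strand in mm10. It had 6.92, 4.52, 4.04 and 7.94 FPKM in the phytic acid libraries, against 0.811, 1.56, 1.97 and 0.483 FPKM in the MC903 libraries. The lowest phytic acid library was above the highest MC903 library. Cd3g averaged 5.86 ± 1.87 FPKM with phytic acid and 1.21 ± 0.681 FPKM with MC903 (SD, n = 4 each), and its log2 fold change was 1.65 ± 0.25 (SE; limma, adjusted p = 0.0021). On recovered reads it was 2.42 ± 0.42 (voom, 95% interval 1.48 to 3.36, adjusted p = 0.00437).

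Cd3d encodes CD3 delta and is the neighbour of Cd3g, on the plus strand at chr9:44981786-44987339. It had 3.31, 2.98, 1.44 and 5.24 FPKM in the phytic acid libraries, against 0.731, 1.68, 1.36 and 0.604 FPKM in the MC903 libraries. The third phytic acid library was inside the range of the MC903 libraries, so the groups overlapped. The log2 fold change was 0.97 ± 0.28 (limma, adjusted p = 0.0291), and 1.54 ± 0.48 on reads (voom, adjusted p = 0.0468). The limma call was lost without phytic acid replicate 1, 2 or 4 or MC903 replicate 1 or 4, where the adjusted p rose to between 0.0633 and 0.0803. The voom call was lost in 6 of 8 cases, all but those without phytic acid replicate 3 or MC903 replicate 3. The voom adjusted p was then 0.0611 (without MC903 replicate 2) to 0.132 (without MC903 replicate 4).

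Cd3e encodes CD3 epsilon, the chain that pairs with CD3 gamma and with CD3 delta, at chr9:44998740-45009627 on the minus strand. It had 2.14, 1.52, 0.992 and 1.85 FPKM with phytic acid, against 0.271, 0.597, 0.794 and 0.308 FPKM with MC903. The groups did not overlap. It rose on reads by 1.78 ± 0.39 on the log2 scale (voom, adjusted p = 0.0119) and stayed called with each library left out in turn, at adjusted p from 0.00574 to 0.0426. An antisense predicted gene, Gm48719, overlaps Cd3e, and without a stated strand setting reads of the pair cannot be told apart. Another predicted gene, Gm48720, overlaps Cd3e on the same strand, where no strand setting would separate them.

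Cd3g, Cd3d and Cd3e lie within 40056 bases of chromosome 9, and the starts of Cd3g and Cd3d are 1355 bases apart and point away from each other. Cd247 is on chromosome 1. The starts of the 4 CD3 and zeta genes are shown. Voom called all of them higher, as it did Cd4, Zap70 and Lat. The sequences are 250 bases before to 50 bases after each RefSeq start on GRCm38.p6, and capitals mark 4 motifs searched on both strands: AGGAAGT (ETS), TGTGGT (RUNX), CACCTG (E-box) and CTTTGA (TCF).
Cd3g (chr9:44980382-44980681, minus strand): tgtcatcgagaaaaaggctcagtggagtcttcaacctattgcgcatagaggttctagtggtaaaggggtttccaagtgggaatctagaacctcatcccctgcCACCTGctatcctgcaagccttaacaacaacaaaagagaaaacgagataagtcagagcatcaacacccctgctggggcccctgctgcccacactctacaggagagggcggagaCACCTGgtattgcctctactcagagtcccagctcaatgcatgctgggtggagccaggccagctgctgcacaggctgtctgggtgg
Cd3d (chr9:44981536-44981835, plus strand): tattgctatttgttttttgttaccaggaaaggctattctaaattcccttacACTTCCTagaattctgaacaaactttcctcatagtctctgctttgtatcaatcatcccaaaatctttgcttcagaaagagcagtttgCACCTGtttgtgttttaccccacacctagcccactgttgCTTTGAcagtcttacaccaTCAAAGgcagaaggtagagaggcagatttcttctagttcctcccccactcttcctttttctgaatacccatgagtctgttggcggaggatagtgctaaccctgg
Cd3e (chr9:45009562-45009861, minus strand): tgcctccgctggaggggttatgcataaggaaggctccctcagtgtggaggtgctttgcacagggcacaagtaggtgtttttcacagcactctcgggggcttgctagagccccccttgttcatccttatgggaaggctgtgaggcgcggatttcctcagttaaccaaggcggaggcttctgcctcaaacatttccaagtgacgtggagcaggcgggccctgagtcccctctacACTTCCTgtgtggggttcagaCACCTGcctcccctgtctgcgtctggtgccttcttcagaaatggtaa
Cd247 (chr1:165788431-165788730, plus strand): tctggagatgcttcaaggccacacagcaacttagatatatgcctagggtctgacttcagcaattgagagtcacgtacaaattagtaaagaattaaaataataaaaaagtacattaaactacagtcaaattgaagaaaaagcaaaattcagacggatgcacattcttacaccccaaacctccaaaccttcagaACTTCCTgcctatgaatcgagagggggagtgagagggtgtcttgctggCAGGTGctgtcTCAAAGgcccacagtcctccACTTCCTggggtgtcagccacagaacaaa
The Cd3g window held 2 CACCTG words and no other motif searched. The Cd3e window held 1 reverse AGGAAGT and 1 CACCTG. In Cd3d and Cd247 the window held 4 matches each. RefSeq promoters were matched for 8 of the 9 member genes, 11 windows in all. The CACCTG word was in 8 of the 11 windows (6 of the 8 genes), against 20.2% of 32851 mouse promoter windows of the same length. AGGAAGT was in 5 of 11 windows (4 of 8 genes), against 9.35% of promoter windows. TGTGGT and CTTTGA were in 3 of 11 windows each (3 of 8 genes each), against 16.8% and 16.0% of promoter windows. These are matches of letters only, and Zap70 and Lck have more than 1 window. None of the 4 words contains another.

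Cd247 encodes the zeta chain, which NK cells also express, and lies at chr1:165788681-165877277. It had 1.02, 1.01, 0.716 and 1.41 FPKM with phytic acid, against 0.344, 0.369, 0.444 and 0.231 FPKM with MC903. The groups did not overlap. It rose by 1.57 ± 0.30 on the log2 scale (voom, adjusted p = 0.00649), and stayed called without each library in turn. Pou2f1 overlaps Cd247 on the opposite strand and the predicted gene Gm16565 on the same strand, so the value of Cd247 is uncertain to that extent. Annotated genes also overlap Zap70 (Gm18828), Lck (Mir8119) and Lat (Mir7058).

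The coreceptor Cd4 (chr6:124864692-124888221), found on helper T cells and in mice also on some dendritic cells, had 2.78, 2.55, 1.21 and 2.89 FPKM with phytic acid, against 1.06, 1.13, 1.09 and 1.03 FPKM with MC903. The MC903 libraries lay within 1.10-fold of each other, and the third phytic acid library was just above them. Cd4 rose by 0.66 ± 0.17 on the log2 scale (limma, adjusted p = 0.0223), and by 1.04 ± 0.31 on reads (voom, adjusted p = 0.0398). The limma call was lost without phytic acid replicate 1, 2 or 4 or MC903 replicate 1 or 4, where the adjusted p reached 0.0552 to 0.0622. The voom call was lost in 7 of 8 cases, all but the one without phytic acid replicate 3, at adjusted p from 0.0507 (without MC903 replicate 3) to 0.0974.

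Cd8a (chr6:71373427-71379173), the alpha chain of the cytotoxic coreceptor, was the lowest member. It had 0.418, 0.330, 0.141 and 0.411 FPKM with phytic acid, against 0.0694, 0.223, 0.183 and 0.162 FPKM with MC903. The groups overlapped. The voom log2 fold change was 0.98 ± 0.49, with a 95% interval of -0.12 to 2.09 (adjusted p = 0.181). These values rest on 22 to 62 reads with phytic acid and 8 to 26 with MC903, and 8 reads have an exact Poisson 95% interval of 3.45 to 15.8. Without phytic acid replicate 3 the voom adjusted p was 0.0433. Cd8b1, the beta chain gene, had 0.199, 0.194, 0.220 and 0.645 FPKM with phytic acid, against 0.0852, 0.168, 0.108 and 0.180 FPKM with MC903, and was not called (voom, adjusted p = 0.202).

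The ratio of Cd4 to Cd8a was 6.63, 7.73, 8.57 and 7.02 with phytic acid, against 15.2, 5.07, 5.95 and 6.36 with MC903. On the log2 scale the ratio averaged 2.90 ± 0.16 with phytic acid and 2.88 ± 0.71 with MC903. The difference was 0.02 (exact permutation test, p = 0.971, smallest p possible 0.0286). Without MC903 replicate 1, where Cd8a had 8 reads, it was 0.37 (exact permutation p = 0.0571, the smallest possible there is 0.0286). With 1 FPKM added to both genes it was 0.47 (exact permutation p = 0.0286, the smallest possible), where every Cd8a value is below the added 1.

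Lck (chr4:129548344-129573641), the Src-family kinase that phosphorylates the CD3 tails, had 1.98, 1.93, 0.778 and 2.49 FPKM with phytic acid, against 0.862, 0.810, 1.397 and 0.803 FPKM with MC903. The groups overlapped, since phytic acid replicate 3 was the lowest of all 8 libraries and MC903 replicate 3 stood above the other MC903 libraries. The log2 fold change was 0.47 ± 0.20, with a 95% interval of 0.02 to 0.93 and an adjusted p of 0.116 (limma). Without phytic acid replicate 3 it was 0.68 (limma, adjusted p = 0.0108).

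Zap70 (chr1:36761798-36782818), the kinase that binds phosphorylated CD3 tails, had 1.03, 0.916, 0.762 and 1.38 FPKM with phytic acid, against 0.211, 0.521, 0.435 and 0.474 FPKM with MC903. The groups did not overlap. Zap70 rose by 1.33 ± 0.33 on the log2 scale (voom, adjusted p = 0.0203). Without MC903 replicate 1 the voom change was 1.06 and the adjusted p 0.0572.

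Lat (chr7:126363824-126369570), the adaptor that ZAP-70 phosphorylates and that mast cells also use, had 2.05, 2.37, 1.505 and 1.97 FPKM with phytic acid, against 0.821, 1.06, 0.807 and 1.13 FPKM with MC903. The lowest phytic acid library was above the highest MC903 library. Lat rose by 0.60 ± 0.12 on the log2 scale (limma, adjusted p = 0.00714) and by 1.03 ± 0.23 on reads (voom, adjusted p = 0.0122). With each library left out in turn it stayed called, at a limma adjusted p of 0.00511 to 0.0272.

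**Figure D2:**
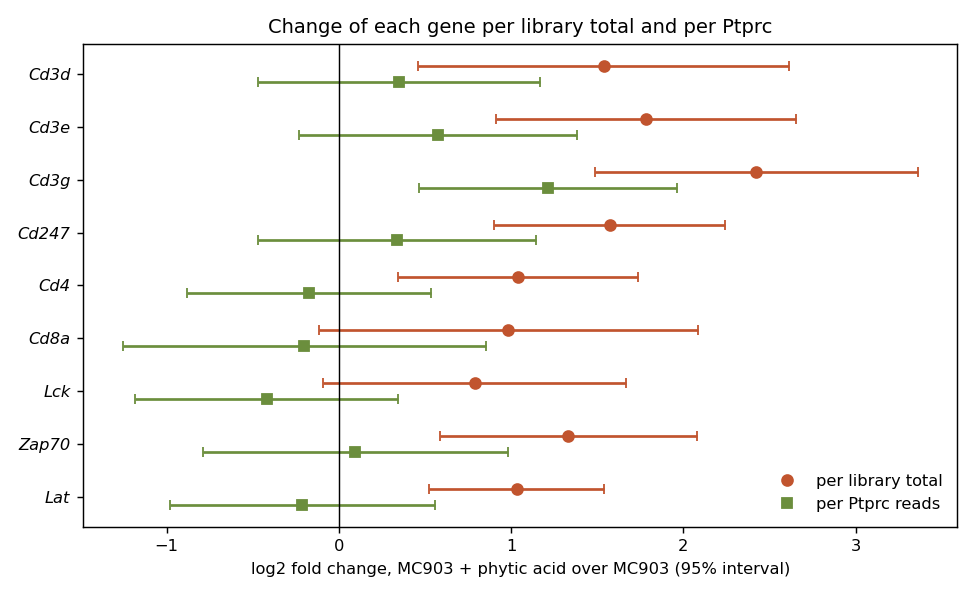
Log2 fold change of each member on recovered reads (limma voom), MC903 plus phytic acid over MC903, with 95% intervals, scaled to the library total (circles) and to the reads of Ptprc (squares). Per library total Cd3g has the largest change at 2.42 and Lck the smallest at 0.79, and per Ptprc the interval of Cd3g alone, 0.46 to 1.97, leaves out 0. The intervals per Ptprc may be too narrow, because the spread of Ptprc is shared by all genes.

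Member levels also varied in parallel within the groups. After group means were taken out, the 36 pairs of members had a median Pearson correlation of 0.74 over the 8 libraries, from -0.04 for Cd3g with Lat to 0.93 for Cd3d with Cd247. These points share each library's depth and cell content, so the correlations are descriptions. The third phytic acid library had the lowest level of its group in all 9 members. Of genes that are not members, Pibf1 (r = 0.985), Nsun4 (0.981), Il13ra2 (0.978), Plbd1 (0.974) and Icos (0.969) were most like the members' mean on this measure, out of 12160 compared. Of these 5, Icos, a costimulatory receptor of activated T cells, was called higher (log2 fold change 0.95, adjusted p = 0.0278, limma).

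**Figure D3:**
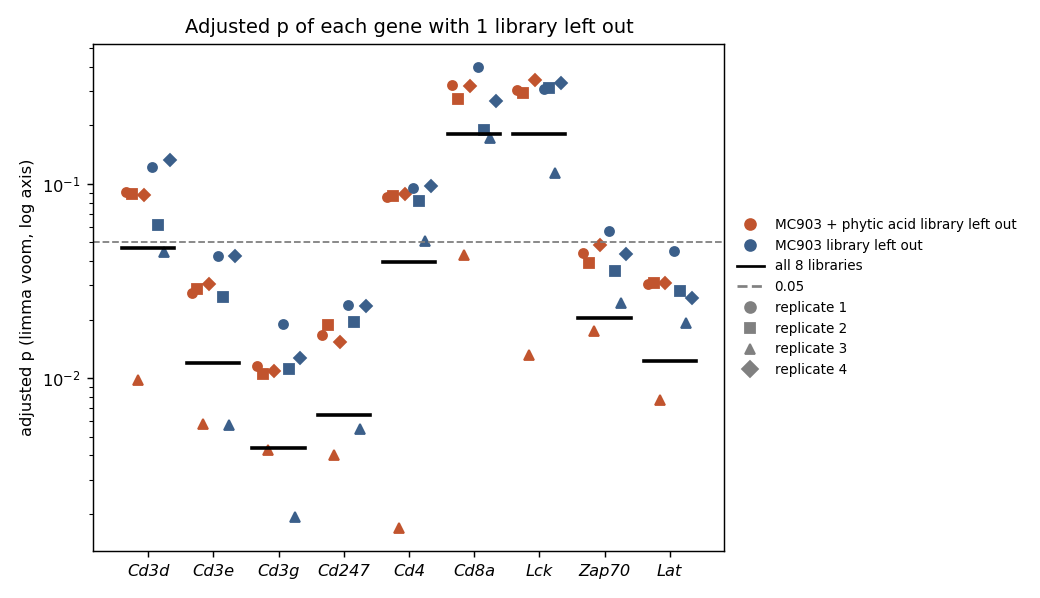
Adjusted p of each member (limma voom on recovered reads, log axis) with 1 library left out in turn; each point is the library left out, the black bar is the value over all 8 libraries and the dashed line is 0.05. Cd3e, Cd3g, Cd247 and Lat stay under the line throughout, and without phytic acid replicate 3 all 9 members are under it.

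Within either group Cd3g had the highest mean level and Cd8a the lowest, per transcript length. With phytic acid the order of means was Cd3g, Cd3d, Cd4, Lat, Lck, Cd3e, Cd247, Zap70 and Cd8a. Of the neighbours in that order, the Zap70 and Cd8a ranges alone were apart. With MC903 the order was Cd3g, Cd3d, Cd4, Lck, Lat, Cd3e, Zap70, Cd247 and Cd8a, and the ranges of Lat and Cd3e and of Cd247 and Cd8a were apart. Cd3d was above Cd4 in 4 of 4 phytic acid libraries and in 2 of 4 MC903 libraries.

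Since Cd3e was itself higher with phytic acid, most genes were lower relative to it: 71.4% of the 14507 other genes had every phytic acid ratio to Cd3e below every MC903 ratio. Among the 8 other members, Lck and Cd8a did so, a smaller share than among all genes. Lck per Cd3e was 0.926, 1.28, 0.785 and 1.35 with phytic acid, against 3.18, 1.36, 1.76 and 2.61 with MC903. Cd8a per Cd3e was 0.196, 0.218, 0.142 and 0.222 with phytic acid, against 0.256, 0.374, 0.230 and 0.525 with MC903. Cd3g per Cd3e was 3.24, 2.98, 4.07 and 4.29 with phytic acid, against 2.995, 2.61, 2.49 and 1.57 with MC903, and those ranges overlapped. These ratios were not tested.

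**Figure D4:**
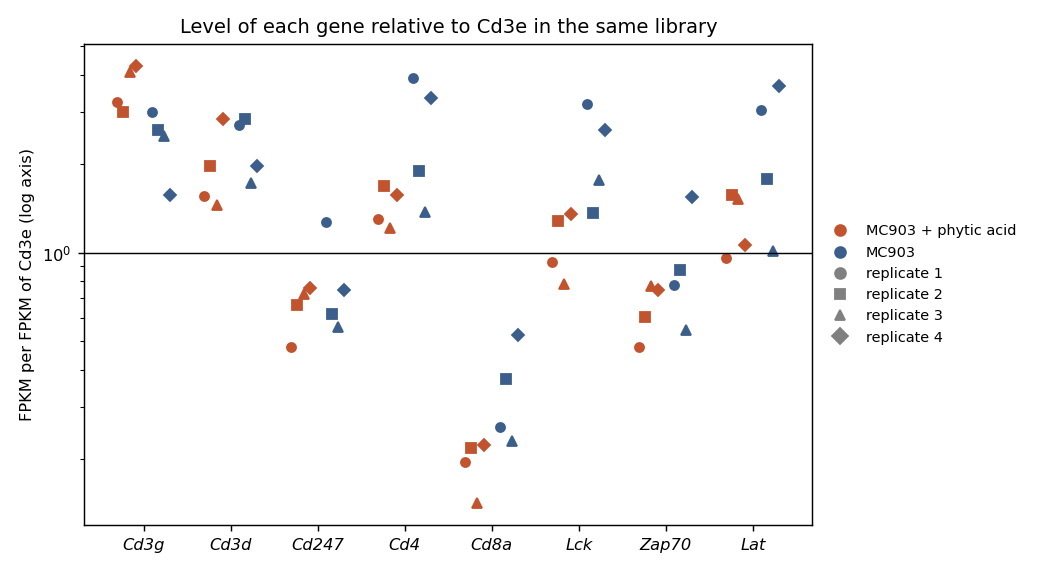
FPKM of each other member divided by the FPKM of Cd3e in the same library, on a log axis, with MC903 plus phytic acid to the left of MC903. The groups are apart for Lck and Cd8a, both lower with phytic acid, as for 71.4% of all genes, and overlap for the other 6 members.

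Ptprc, which encodes the leukocyte marker CD45, had 11.4, 7.07, 4.54 and 10.1 FPKM with phytic acid, against 3.64, 2.80, 3.40 and 3.52 FPKM with MC903. It rose by 1.03 on the log2 scale (limma, adjusted p = 0.0106). Of 10 leukocyte genes 4 rose, with a summed level of 186 to 360 FPKM with phytic acid and 124 to 197 FPKM with MC903. Relative to Ptprc, Cd3g was the member still called higher, by 0.62 ± 0.29 (limma, adjusted p = 0.0398), where 0.863% of genes were called higher and 84.8% lower. Its change on reads relative to Ptprc was 1.21 ± 0.38 (voom, adjusted p = 0.00363), where 1.39% of genes were called higher and 76.0% lower. In both fits the library-to-library spread of Ptprc entered every gene alike. Intervals relative to Ptprc may therefore be too narrow and p-values too small for so few libraries. Calls relative to Ptprc, here and below, are descriptions. The ratio of Cd3g to Ptprc was 0.605, 0.639, 0.891 and 0.789 with phytic acid, against 0.223, 0.556, 0.580 and 0.137 with MC903, with no overlap. Relative to Ptprc the median of all genes was -0.98 (limma), and the other members tested were at -0.061 for Cd3d, -0.37 for Cd4, -0.56 for Lck and -0.43 for Lat, none of them called. On reads (voom) the median of all genes was -1.15. There Cd3e was at 0.58, Cd3d at 0.35, Cd247 at 0.34 and Zap70 at 0.10. Cd4 was at -0.17, Cd8a at -0.20, Lat at -0.21 and Lck at -0.42, and Cd3g alone was called.

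Genes of related T cell functions rose in part, scaled to the library total. None of them was called lower in this test or in voom, while 1 was with TPM and with median-ratio scaling and 2 with quantile scaling and with library weights. Of 19 tested genes that act downstream of the receptor, 8 rose, with a median log2 fold change of 0.34, where the median of all genes was 0.05. Rasgrp1, which activates Ras downstream of LAT, averaged 8.92 ± 1.23 FPKM with phytic acid and 3.22 ± 1.07 FPKM with MC903 (log2 fold change 1.26, adjusted p = 0.00158, limma). Grap2, an adaptor that links LAT to SLP-76, rose by 1.09 (adjusted p = 0.00591), and Stim1, a calcium sensor, by 0.54 (adjusted p = 0.00975). Of 14 tested genes in a list of mainly negative regulators, 5 rose, with a median of 0.25. The 5 include Ptprc, which is also counted among the leukocyte genes. Among them Dok2, an inhibitory adaptor, rose by 1.20 (adjusted p = 0.00059) and Ptpn22, a phosphatase that dephosphorylates LCK, by 0.51 (adjusted p = 0.0144).

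Of 12 tested costimulation and activation genes, 7 rose, with a median of 0.72. Cd96 averaged 2.60 ± 0.433 FPKM with phytic acid and 0.541 ± 0.146 FPKM with MC903 (log2 fold change 1.22, adjusted p = 0.000367), and Cd226, which shares a ligand with it, rose by 1.54 (adjusted p = 0.00386). Cd2, an adhesion receptor of T and NK cells, rose by 1.28 (adjusted p = 0.0136). Of 11 tested lineage and homing genes, 5 rose, with a median of 0.79. The homing receptor Ccr7 rose by 0.92 (adjusted p = 0.00571), the IL-7 receptor gene Il7r by 0.79 (adjusted p = 0.00713) and the chemokine receptor gene Cxcr6 by 1.08 (adjusted p = 0.0149). Over these 4 lists and the dendritic epidermal T cell list, 29 of 62 tested genes were called higher, where 14.2% of all genes were, and 20 to 34 with a library left out. With replicate numbers as a block 16 were called. A listed gene could pass the filter through the higher group alone, as Cd96 and Cd226 did, so these counts are a description. Relative to Ptprc, 2 of 61 were called higher and 31 lower, where 84.8% of all genes were lower.

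**Figure D5:**
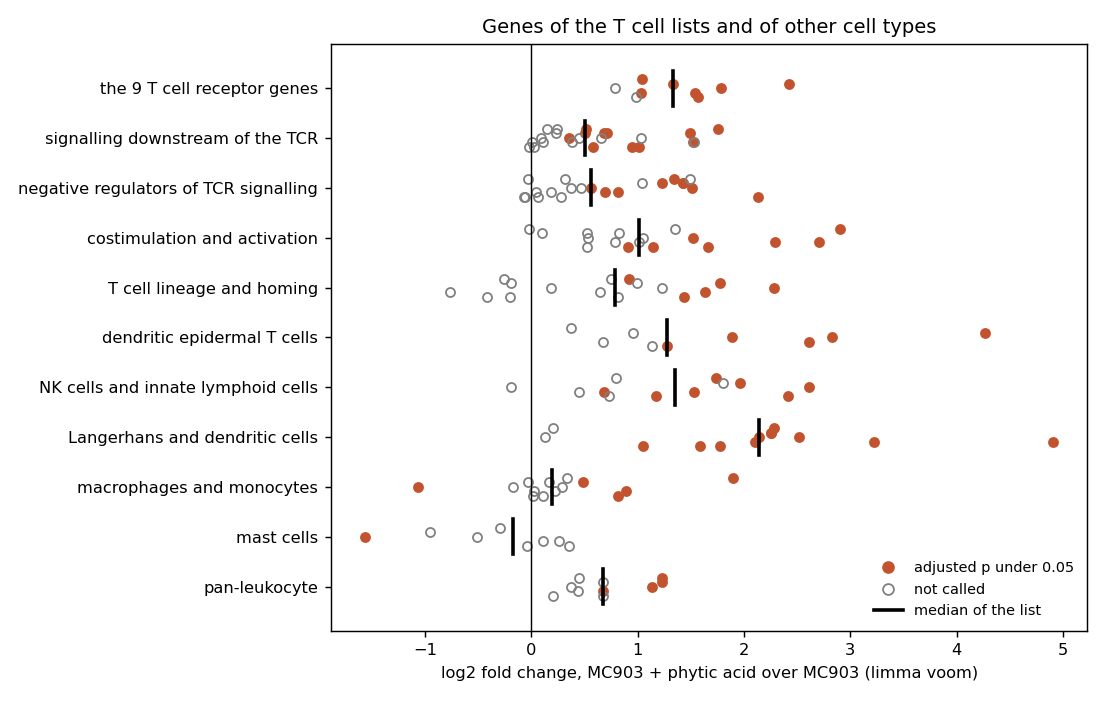
Log2 fold change (limma voom on recovered reads), MC903 plus phytic acid over MC903, of each tested gene in the T cell lists and in lists of other cell types; filled points passed an adjusted p under 0.05 and bars are list medians. The Langerhans and dendritic cell list has the highest median of those drawn, at 2.14, and the mast cell median is -0.17.

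Markers of other cells that share some of these genes moved too. Here too a gene could pass the filter through the higher group alone, as Xcl1 and Klrk1 did, so the counts of called markers are descriptions. Dendritic epidermal T cell genes rose in 4 of 6 tested, among them the chemokine gene Xcl1 by 1.93 (adjusted p = 0.00103), Klrk1, which encodes the activating receptor NKG2D, by 0.94 (adjusted p = 0.00147) and Cd7 by 1.70 (adjusted p = 0.00568), with a summed level of 48.8 to 87.3 FPKM with phytic acid and 29.3 to 49.8 FPKM with MC903. Fcer1g, which mast and myeloid cells share and which was not called, made up most of that sum, and without it the range was 12.8 to 24.1 FPKM with phytic acid and 3.45 to 7.17 FPKM with MC903. The gamma-delta receptor genes that would set dendritic epidermal T cells apart were not analysed here, so the rise cannot be assigned to these cells. NK and innate lymphoid markers, some of which accompany Cd247, Lck, Zap70 and Lat, rose in 4 of 6 tested, among them Klrd1 by 1.13 (adjusted p = 0.0016), Nkg7 by 1.21 (adjusted p = 0.005) and Klrb1b by 1.42 (adjusted p = 0.00749). Their sum was 56.0 to 66.5 FPKM with phytic acid and 31.4 to 39.5 FPKM with MC903, and without the widely expressed Rora 21.6 to 39.5 FPKM with phytic acid and 12.4 to 21.2 FPKM with MC903. Of their defining markers, Eomes had 0.0189 to 0.112 FPKM with phytic acid. With MC903 Eomes had 0.0304 FPKM in replicate 1 and was listed at 0 in replicates 2, 3 and 4. Ncr1 had 0.166 to 0.59 FPKM with phytic acid and 0 (replicate 4) to 0.362 FPKM with MC903. The groups overlapped in Ncr1, which was not called (voom, adjusted p = 0.221). Langerhans and dendritic cell markers, which in mice can carry Cd4, rose in 9 of 10 tested, with H2-Ab1 at 168 ± 49.8 FPKM with phytic acid and 35.9 ± 13.1 FPKM with MC903 (log2 fold change 2.22, adjusted p = 0.00159). Their sum was 703 to 1480 FPKM with phytic acid and 187 to 396 FPKM with MC903.

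Macrophage and monocyte markers rose in 4 of 14 tested, among them Ccr2 by 1.73 (adjusted p = 0.00363) and Lyz2 by 0.89 (adjusted p = 0.0053). Mast cell markers, of cells that also use Lat, summed to 138 to 250 FPKM with phytic acid and 159 to 264 FPKM with MC903, and 1 of 8, Fcer1a, was called and fell by 1.37 on the log2 scale (adjusted p = 0.0188). B cell markers summed to 1.06 to 2.05 FPKM with phytic acid and 0.300 to 1.15 FPKM with MC903, and none reached the filter of the limma test. Muscle markers summed to 7897 to 9248 FPKM with phytic acid and 3678 to 4280 FPKM with MC903, with 10 of 12 rising. Adipocyte markers rose in 3 of 9 tested, with a sum of 602 to 1097 FPKM with phytic acid and 229 to 556 FPKM with MC903. The part that these markers have in the members' values was not tested.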

How the data were processed

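Gene expression was measured by RNA-seq in 8 mouse skin libraries, 4 per group. The deposited table gives FPKM per gene and library, scaled by the authors to length and library total. Per the submitters' processing notes, the tools were TopHat2, HISAT2, cutadapt and DESeq and the build mm10; which of them made the FPKM, the annotation and the strandedness were not stated there. Per the labels' protocols, RNA was taken with TRIzol and a SMARTER kit made the libraries. Rows without a gene name (51, at most 0.0238% of a column) were left out, and of 21 repeated names the row with the higher mean was kept.

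FPKM steps gave whole reads (within 0.05) for 17509 of 17980 genes (97.4%), and these recovered reads and totals were used in limma voom. The test for log2(FPKM + 1) was limma 3.58.1 in R 4.3.3, with genes of at least 1 FPKM in at least 4 libraries; all tests are two-sided, adjusted by Benjamini-Hochberg over all genes tested. A fold change is MC903 plus phytic acid over MC903 and understates low genes because of the added 1. Coordinates are from the GENCODE annotation of GRCm38 (mm10), counted from 1, and promoters from RefSeq GRCm38.p6. The scripts were tested on simulated data in which all genes had the same spread, which checks the code and not the calls of these genes.

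The members and lists were chosen with earlier results of these data known. Named genes were taken from the 9 members, up to 3 called genes of smallest adjusted p in each other list (up to 2 of smallest p where none is called), Ptprc, and the 5 genes most like the members' mean. Krt5, Fcer1g, Rora, Eomes and Ncr1 were named after their values were seen. Library weights, other scalings, filters, pseudocounts, a replicate block and leaving out each library were tried.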

Additional observations from a re-analysis of the deposited data

Results flagged for a closer look

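In MC903 replicate 3, Lck stood at 1.397 FPKM, apart from the other MC903 libraries at 0.862, 0.810 and 0.803 FPKM. The gap between it and the nearest of them made up 0.901 of the whole range of the group, above Dixon's critical value for 4 samples. Of 22 groups looked at in this way, 1 stood out, and chance gives about 1 in 20. Without that library the log2 fold change of Lck was 0.57 (limma, adjusted p = 0.0626).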

How the results depend on the processing

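Pseudocounts, filters, TPM, scaling by median ratio or quantile, library weights, a replicate block, limma voom on reads, and leaving out each library were tried; voom relative to Ptprc and voom without each library were chosen after seeing the data. Leaving out 1 library gave 2013 (without MC903 replicate 1) to 3979 called genes, 2 to 5 members called by limma, 4 to 9 by voom, and 20 to 34 called genes of the T cell lists. The limma log2 fold changes then ranged from 0.76 to 1.21 for Cd3d, 0.58 to 0.85 for Cd4 and 0.35 to 0.68 for Lck. Those of voom ranged from 1.26 to 1.89 for Cd3d, 0.91 to 1.35 for Cd4, 0.66 to 1.35 for Cd8a, 0.59 to 1.16 for Lck and 1.06 to 1.47 for Zap70. The Cd4 to Cd8a difference ranged from -0.16 to 0.37.

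Called genes numbered 10426 relative to Ptprc, 4796 with library weights and 2046 with the replicate block. The p-values relative to Ptprc may be too small, because its spread is shared by all genes. Median-ratio scaling gave 1469 higher and 1834 lower and quantile scaling 1652 and 1748, against 1722 and 1412. Called members numbered 7 with TPM and 7 with voom, 1 relative to Ptprc with limma and 1 with voom. T cell list calls were 8 at a mean FPKM of at least 5, which leaves no member, and 16 with the block.

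Relative to Ptprc, limma gave -0.061 for Cd3d, -0.37 for Cd4, -0.56 for Lck and -0.43 for Lat. Relative to Ptprc, voom gave 0.35 for Cd3d, 0.58 for Cd3e, 0.34 for Cd247 and 0.10 for Zap70. It gave -0.17 for Cd4, -0.20 for Cd8a, -0.42 for Lck and -0.21 for Lat. TPM gave 1.29 for Cd3e, 1.03 for Cd247 and 0.90 for Zap70, and voom 1.78 for Cd3e, 1.57 for Cd247, 0.98 for Cd8a and 1.33 for Zap70. Cd3d at 0.97 missed the threshold with no filter and with the replicate block, and Lck at 0.58 passed with library weights. The Cd4 to Cd8a difference was 0.47 with 1 FPKM added. Samples of the same replicate number showed no shared likeness across groups after group means were taken out (correlations of -0.28, -0.10, -0.29 and 0.23). The labels do not say whether samples were paired. The cause of these differences between settings was not tested.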
